A study of Mus musculus with 8 samples.

Results

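The sensory neuropeptide precursors described here are 10 genes, Calca, Calcb, Tac1, Adcyap1, Sst, Nppb, Gal, Nmb, Cartpt and Npy, chosen by name as peptide genes of dorsal root ganglion (DRG) neurons out of 55414 genes counted. Their transcripts were measured by bulk RNA-seq in E18.5 mouse DRG, late in gestation. AD1 OE embryos (n = 4) had the genotype AdvillinCre/+;Rosa26Dach1/+, in which Cre made from the Advillin gene of sensory neurons removes a stop cassette and switches on a Dach1 copy with an EGFP reporter at the Rosa26 locus. Control embryos (n = 4) were Advillin+/+;Rosa26Dach1/+ and carried the same silent Rosa26 allele without Cre, so that the groups also differ in the Advillin allele. The Rosa26Dach1 mice were of mixed C57Bl/6J and CD1 background, the libraries of a group came from separate embryos, and the whole ganglion with neurons and glia was sequenced. The comparison asked which transcripts change when Dach1, a transcription factor normally switched off in most of these neurons, is present throughout them.

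A neuropeptide is cut out of a larger precursor protein by convertases in the secretory pathway, packed into large dense-core vesicles and released to act on G protein-coupled receptors. In adult DRG, CGRP (from Calca and Calcb), substance P (from Tac1) and PACAP (from Adcyap1) are made mainly by peptidergic nociceptors, the small-diameter neurons that respond to painful stimuli and cause vasodilation and plasma leakage where they release peptide. Somatostatin (Sst) and B-type natriuretic peptide (Nppb) mark itch-sensing neurons, and neuromedin B (Nmb) is a bombesin-like peptide of nociceptors. Galanin (Gal) and neuropeptide Y (Npy) are known for their induction after nerve injury, and Npy is also the main peptide of sympathetic neurons. Cartpt encodes the CART peptides, best known from feeding circuits.

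The libraries held 22339059 to 44025625 counts, and values are given in CPM, that is, scaled to a common library size after TMM correction. Dach1 was at 91.5 to 102 CPM (AD1 OE) and 30.2 to 33.7 CPM in Control, as the labels require, and Avil stood at 52.0% of its Control mean. All 8 pan-sensory neuron markers (Isl1, Pou4f1, Drgx, Prph, Uchl1, Tubb3, Snap25 and Slc17a6) were present in every library, and none was called changed. The groups overlapped for all 8, and 2 had an unadjusted p under 0.05 in edgeR. These were Snap25 and Slc17a6, at 90.0% and 93.2% of their Control means. The summed level of the 8 markers was 5836 to 6644 CPM (AD1 OE) and 6425 to 6615 CPM in Control. That of 7 glial markers was 944 to 1191 and 961 to 1189 CPM, with 0 of the 7 called by edgeR and 1 at an unadjusted p under 0.05. That gene was Fabp7, at 209 to 238 CPM in AD1 OE and 247.5 to 328 CPM in Control, without overlap (edgeR adjusted p = 0.101). AD1 OE held 3 male and 1 female libraries and Control 1 male and 3 female libraries, as read from Xist and Y-linked transcripts. The marker sums of fibroblasts (3479 to 4288 CPM in AD1 OE, 3058 to 3994 in Control), endothelium (226 to 274, 237 to 245) and macrophages (58.1 to 69.4, 66.3 to 72.7) overlapped, and 0 of their genes were called by edgeR, with 4 of 13 at an unadjusted p under 0.05, against 18.6% of all tested genes. Of these 13, Pdgfra of the fibroblast list was separated, at 93.7 to 112 CPM in AD1 OE and 84.1 to 92.4 CPM in Control (edgeR adjusted p = 0.0232). In such bulk samples, fewer cells of a type and less RNA per cell cannot be told apart.

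Before birth the peptide genes already spanned a wide range, led by Calca and, per kb of exon, Gal. On a scale of CPM per kb of exon, which allows different genes to be compared, the mean level in Control was 271.5 ± 1.91 for Calca (SD, n = 4 for this and the following values) and 79.95 ± 6.44 for Gal. Tac1 was at 34.8 ± 2.10, Adcyap1 at 33.9 ± 1.48, Calcb at 26.8 ± 1.36 and Nmb at 13.7 ± 1.24 CPM per kb. The lowest levels were those of Cartpt at 3.89 ± 2.40, Npy at 1.71 ± 0.430, Sst at 1.26 ± 0.630 and Nppb at 0.761 ± 0.116 CPM per kb. Calca thus lay above 99.6% of the tested genes on this scale and Gal above 97.7%, whereas Npy, Sst and Nppb lay above 30.5%, 25.95% and 18.7%. Neighbours in this order were not separated where the ranges over the 4 Control libraries overlapped, which was the case for Tac1 and Adcyap1, for Cartpt and Npy, for Npy and Sst, and for Sst and Nppb. The order was the same when the longest transcript was taken as the length, and shorter transcripts were not tried. By CPM without length, Gal at a Control mean of 63.0 was below Adcyap1 at 127.9 and Tac1 at 118. Its second place thus rests on its short annotated length of 788 bases. In AD1 OE the first and second places and the 5 lowest places were unchanged, but Adcyap1 at 23.9 ± 1.73 and Calcb at 20.4 ± 2.39 CPM per kb stood before Tac1 at 18.9 ± 1.03, and there the ranges overlapped for Adcyap1 and Calcb, for Calcb and Tac1, for Nmb and Cartpt, and for Npy and Sst.

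**Figure D1:**
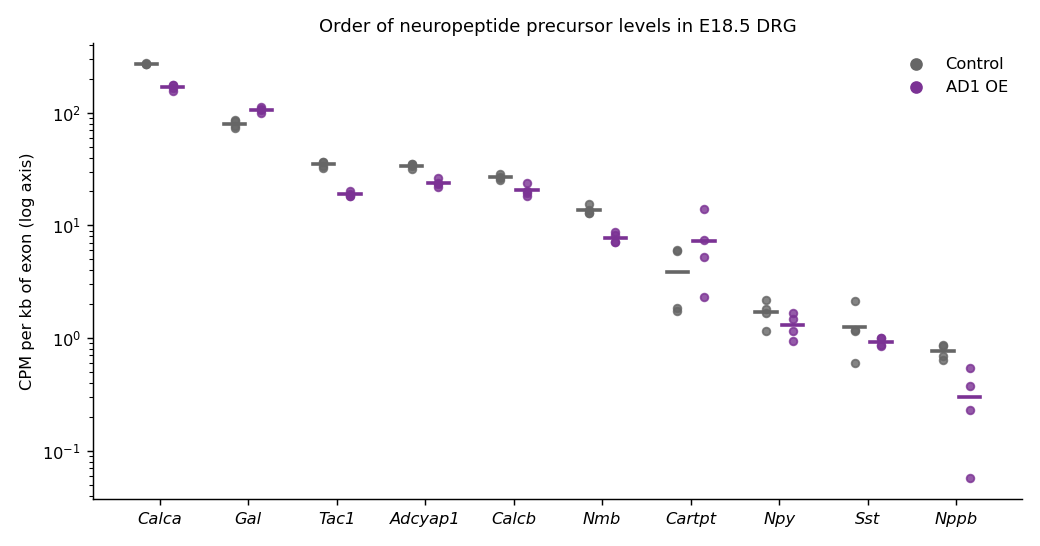
Level of each neuropeptide precursor in CPM per kb of exon (log axis), in order of the Control mean; points are libraries and bars are means of 4 libraries. Calca and Gal lead in both groups, at means of 271.5 and 79.95 in Control and 167 and 106.5 in AD1 OE, and Nppb is lowest at 0.761 and 0.301.

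Of the 10 peptide genes, all of which passed the expression filter, 4 fell in AD1 OE (Calca, Tac1, Adcyap1 and Nmb), 1 rose (Gal) and 5 were not called. Genes were called by the edgeR quasi-likelihood test where the adjusted p (Benjamini-Hochberg) was below 0.005 and the log2 fold change (log2FC, AD1 OE over Control) exceeded 0.25 in size. Among all 17721 tested genes, 2.57% were called, 1.78% lower and 0.784% higher. The AD1 OE libraries lay entirely below the Control libraries for 6 peptide genes and entirely above them for 1, against 7.26% and 5.69% of all tested genes. The median log2FC was -0.45 over the 10 peptide genes and 0.002 over all tested genes. Nppb is counted among the 6 and in the median, but it passed the filter through its Control counts. Its lower AD1 OE counts are therefore not taken as support.

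**Figure D2:**
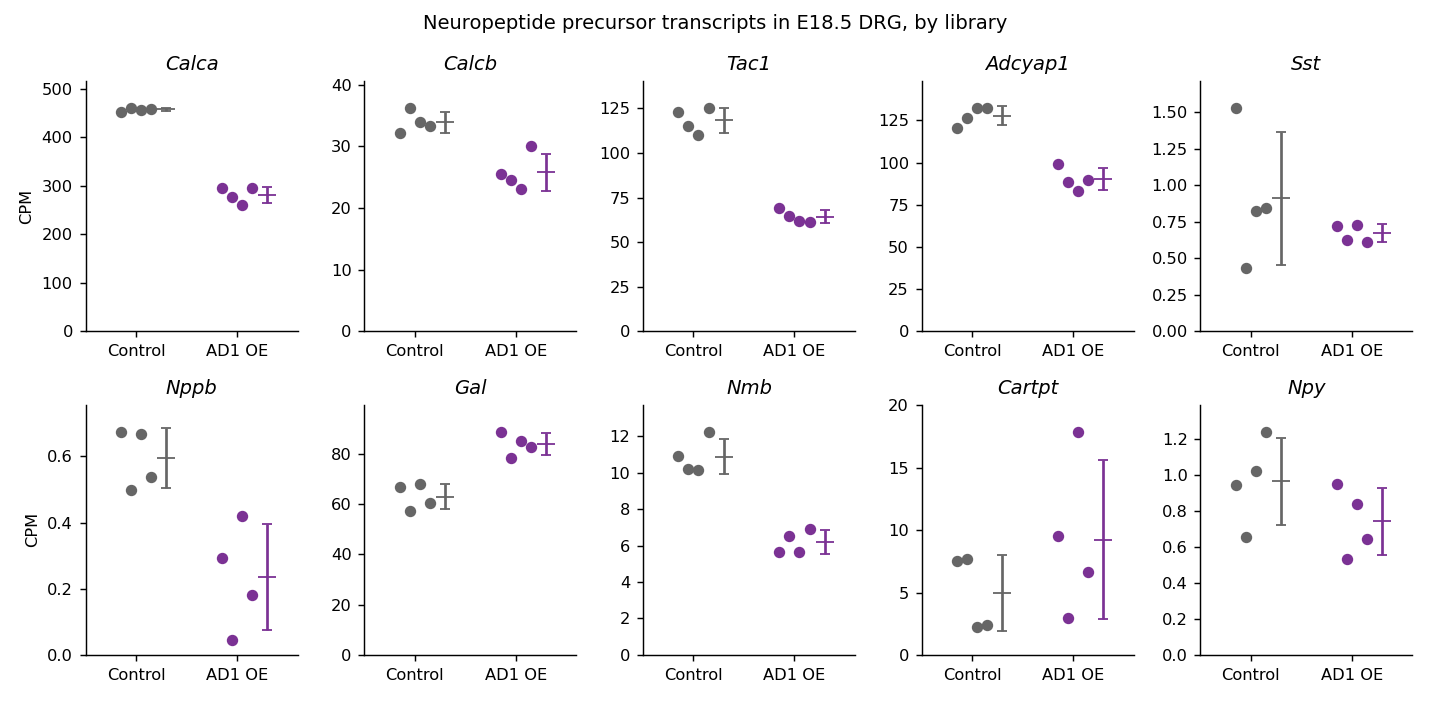
CPM of each neuropeptide precursor in every library (points) with the mean and SD of 4 libraries beside them; each panel has its own axis from 0. Calca, Calcb, Tac1, Adcyap1, Nppb and Nmb are lower in every AD1 OE library than in any Control library, Gal is higher in every AD1 OE library, and Sst, Cartpt and Npy overlap.

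Calca, the gene for calcitonin and alpha-CGRP, was the most abundant peptide transcript and also the most even one among Control embryos. It was at 453, 461, 457 and 459 CPM in Control replicates 1 to 4 and at 295, 277, 261 and 295 CPM in AD1 OE replicates 1 to 4. The groups were far apart, and the coefficient of variation was 0.705% in Control and 5.78% in AD1 OE. The log2FC was -0.70 with an SE of 0.05, leaving 61.6% of the Control level in AD1 OE (edgeR adjusted p = 3.58e-06). Counts per gene do not separate the calcitonin and CGRP messages that are spliced from Calca.

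Calcb, the gene for beta-CGRP, was far lower and shifted less. It was at 32.2, 36.2, 33.9 and 33.3 CPM in the Control libraries and at 25.5, 24.5, 23.1 and 30.1 CPM in the AD1 OE libraries. These groups did not overlap, although AD1 OE replicate 4 lay close to the lowest Control library. The log2FC of -0.39 (SE 0.08) came with an adjusted p of 0.00852 in edgeR, so Calcb was not called. Without AD1 OE replicate 4 it was called (log2FC -0.47, adjusted p 0.00134), and likewise by DESeq2 (adjusted p 6.88e-05) and with no expression filter (4.72e-05), and over all alternatives the adjusted p ranged up to 0.0339. Calca made up 93.1 ± 0.287% of the Calca and Calcb counts in Control (SD, n = 4) and 91.6 ± 0.60% in AD1 OE. By library the share ran from 92.7 to 93.4% in Control and from 90.7 to 92.0% in AD1 OE, so that the ranges did not overlap. This share does not depend on library scaling.

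Calca and Calcb are neighbours on chromosome 7 and are nearly alike where they encode CGRP, which bears on how well their reads can be told apart. The most similar stretch of their coding sequences is shown 5′ to 3′ in the direction of each gene, with the differing bases in capitals. In Calca it covers the end of exon 3 (chr7:114634468-114634495) and exon 4 (chr7:114632458-114632599) of 5 on the minus strand, and in Calcb the end of exon 3 (chr7:114720187-114720214) and exon 4 (chr7:114721975-114722116) of 5 on the plus strand (GRCm38, GENCODE M21).
Calca: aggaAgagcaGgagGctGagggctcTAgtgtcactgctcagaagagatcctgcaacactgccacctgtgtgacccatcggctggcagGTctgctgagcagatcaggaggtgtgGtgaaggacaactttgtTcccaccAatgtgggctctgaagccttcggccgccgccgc
Calcb: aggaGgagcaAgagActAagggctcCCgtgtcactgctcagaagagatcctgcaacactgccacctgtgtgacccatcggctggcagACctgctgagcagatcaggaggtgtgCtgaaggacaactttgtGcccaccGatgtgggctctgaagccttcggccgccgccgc
Over these 170 bases the genes differ at 11 positions and are identical at 159 (93.5%), with a longest identical run of 60 bases. Reads that fall in this stretch separate the genes by few bases, and since Calca had many times more counts, the smaller Calcb count is the more uncertain of the pair.

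Tac1, the precursor of substance P and neurokinin A, had the steepest decrease among the abundant peptide genes. Control libraries were at 123, 114.9, 109.9 and 125 CPM and AD1 OE libraries at 69.1, 64.6, 62.0 and 61.4 CPM. Every AD1 OE library lay well below every Control library, and the AD1 OE mean was 54.4% of the Control mean. The log2FC was -0.88 with an SE of 0.05 (edgeR adjusted p = 1.61e-06).

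Adcyap1 encodes PACAP, a peptide related to VIP that is released with CGRP and dilates vessels. It was at 120.7, 126, 132 and 132.5 CPM (Control) and at 99.1, 88.6, 83.4 and 89.6 CPM in AD1 OE. AD1 OE stood at 70.5% of Control, a smaller decrease than that of Calca in value, with a log2FC of -0.50 and an SE of 0.05 (edgeR adjusted p = 9.51e-05). The difference between these decreases was not tested.

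Nmb, the neuromedin B gene, was lower by a similar proportion as Tac1 at a far lower CPM level. Its Control libraries were at 10.9, 10.2, 10.1 and 12.3 CPM and its AD1 OE libraries at 5.63, 6.55, 5.62 and 6.91 CPM. There was no overlap, and AD1 OE was at 56.7% of Control with a log2FC of -0.82 and an SE of 0.10 (edgeR adjusted p = 2.26e-04). Nmb shares 163 exon bases on the same strand with Sec11a in the annotation, out of 793 exon bases of Nmb, and the part of its count that this touches was not measured.

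Gal was the only peptide gene called higher. Galanin transcripts were at 66.6, 57.2, 67.8 and 60.3 CPM (Control) and at 88.9, 78.5, 85.3 and 82.9 CPM in AD1 OE, with all AD1 OE libraries above all Control libraries. The log2FC was 0.42 with an SE of 0.06, or 133% of Control (edgeR adjusted p = 9.59e-04). Without AD1 OE replicate 1 the value was 0.39 with an adjusted p of 0.00510, just over the threshold, while the other 16 alternative fits called it. Because Gal is known for its induction by nerve injury, 8 injury-response genes were read beside it. Sox11 was higher, at 84.9 ± 4.72 CPM (AD1 OE) and 62.3 ± 2.43 CPM in Control (log2FC 0.45, edgeR adjusted p = 1.05e-04), and 6 other tested genes of that list were not called. Of these, Flrt3 was at 32.1 to 37.6 CPM in all AD1 OE libraries and 25.0 to 30.1 CPM in Control, without overlap (log2FC 0.32, edgeR adjusted p = 0.0184), and the groups overlapped for Atf3 (log2FC 0.14), Jun (-0.05), Gap43 (-0.06), Gadd45a (-0.04) and Ecel1 (-0.89). Sprr1a, the eighth, was below the filter. Of all tested genes, 0.784% were called higher, and for 5.69% the AD1 OE libraries lay entirely above Control. The summed level of the list was 945 to 1017 CPM (AD1 OE) and 984 to 1015 CPM in Control, and its part in the Gal result was not tested.

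The itch peptides were close to the lower end of detection. Nppb had 15, 16, 17 and 19 counts in Control replicates 1 to 4 and 13, 1, 11 and 5 counts in AD1 OE replicates 1 to 4, which corresponds to 0.595 ± 0.0904 and 0.235 ± 0.161 CPM (SD, n = 4). All AD1 OE libraries were below all Control libraries, with AD1 OE replicate 2 at a single read. The log2FC of -1.24 had an SE of 0.38 (95% interval -2.18 to -0.31) and an edgeR adjusted p of 0.0878. Over 16 alternatives Nppb was never called, with adjusted p-values from 0.0370 to 0.310. Sst had 14 to 34 counts per library in both groups. Its Control libraries were at 1.53, 0.436, 0.825 and 0.847 CPM and enclosed the AD1 OE libraries at 0.724, 0.624, 0.727 and 0.612 CPM. The log2FC was -0.38 with a 95% interval of -1.16 to 0.39 (edgeR adjusted p = 0.578), and it was -0.05 without Control replicate 1, the library with the highest Sst level, and -0.63 without Control replicate 2, the lowest (adjusted p = 0.270). Changes of Sst within that interval were not detectable at this depth.

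Npy was equally scarce, with 12 to 44 counts per library. It was at 0.945, 0.654, 1.02 and 1.24 CPM (Control) and at 0.950, 0.535, 0.842 and 0.648 CPM in AD1 OE. The groups overlapped, with a log2FC of -0.34 and a 95% interval of -0.95 to 0.26 (edgeR adjusted p = 0.512). Sympathetic neurons, which make Npy, left few transcripts. Their 8 markers summed to 17.5 to 22.8 CPM (AD1 OE) and 9.66 to 26.5 CPM in Control, and none was at 0 in any library. Dbh, the noradrenaline-synthesising enzyme, was at 4.86 CPM in Control replicate 1 and at 0.157 to 1.34 CPM in the other 7 libraries. Chrna3, a nicotinic receptor subunit of that list, was the 1 marker called, at 16.1 ± 1.82 CPM (AD1 OE) and 9.05 ± 1.75 CPM in Control (edgeR adjusted p = 0.00178). Chrna3 made up most of the sum of the 8 markers in every library except Control replicate 1. Its range was 14.3 to 18.3 CPM (AD1 OE) and 6.95 to 10.7 CPM in Control, so the sum mainly follows this gene. Control replicate 1 also had the highest sum of 8 spinal cord markers, 8.46 CPM, against 1.31 to 5.17 CPM in the other libraries, with Lbx1, Mnx1 and Chat at 0 in at least 1 library. Whether either tissue contributes to the peptide levels was not tested. The 5 called peptide genes kept their calls without Control replicate 1, a fit that retained Control replicate 4 with the next highest spinal cord sum, 5.17 CPM.

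Cartpt varied more than any other peptide gene. Control replicates 1 and 2 were at 7.51 and 7.72 CPM and Control replicates 3 and 4 at 2.24 and 2.37 CPM. AD1 OE replicates 1 to 4 were at 9.50, 2.94, 17.9 and 6.66 CPM. The coefficient of variation was 61.8% in Control and 68.8% in AD1 OE, although each library held 57 to 468 Cartpt counts, and the log2FC of 0.92 had an SE of 0.50 (95% interval -0.30 to 2.14, edgeR adjusted p = 0.361). Over the alternatives the fold change ran from 0.43 without AD1 OE replicate 3 to 1.64 with a sex score (adjusted p 0.0426) and was not called.

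**Figure D3:**
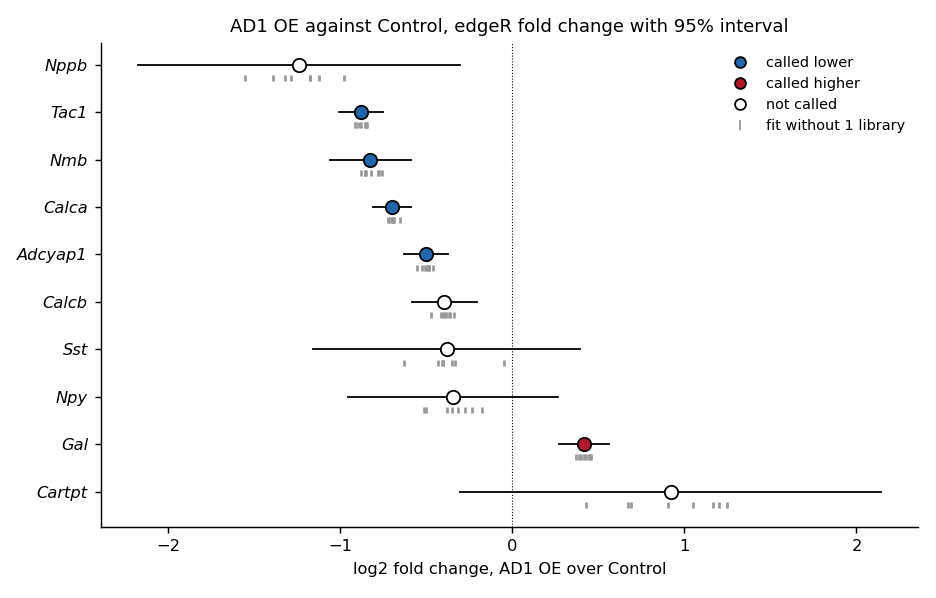
Log2 fold change of each neuropeptide precursor in AD1 OE over Control (circles) with its 95% interval (lines) and the values of the 8 fits that leave out 1 library (grey ticks). Blue and red mark called genes; Tac1, Nmb, Calca and Adcyap1 lie between -0.88 and -0.50 with narrow intervals, Gal lies at 0.42, and the intervals of Sst, Npy and Cartpt cross 0.

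Summed over the 10 genes, peptide precursor transcripts were at 815 to 827 CPM (Control) and at 540 to 594 CPM in AD1 OE, and the mix changed with the total. Calca made up 55.4 to 56.5% of this sum in Control libraries and 48.3 to 51.4% in AD1 OE libraries. The Gal share was 7.02 to 8.32% in Control and 14.4 to 15.8% in AD1 OE, and the Tac1 share was 13.5 to 15.1% and 10.7 to 11.9%. Adcyap1 kept a similar share, at 14.8 to 16.2% in Control and 15.4 to 16.7% in AD1 OE.

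Since the sexes were unevenly spread over the groups, the called genes were also read within each sex, where 1 group is a single library, and these values were not tested. The log2 ratio of AD1 OE to Control was -0.81 in females and -0.67 in males for Calca, -0.90 and -0.95 for Tac1, -0.60 and -0.52 for Adcyap1, -0.89 and -0.95 for Nmb, and 0.42 and 0.47 for Gal. Each of these 5 genes was thus on the same side in both sexes, and each stayed called in the fit that included a sex score. Cartpt, which was not called, had log2 ratios of 1.82 in females and 1.26 in males. Every AD1 OE library was above the Control libraries of its sex for Cartpt. Calcb, Sst, Nppb and Npy, also not called, had negative ratios in both sexes.

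Among 8 genes of nociceptors, peptidergic and non-peptidergic, AD1 OE libraries lay entirely below Control for Scn10a and Ret and entirely above for Scn11a and P2rx3, against 7.26% and 5.69% of all tested genes. Ret and P2rx3 are known mainly from non-peptidergic nociceptors. Of the 8, Scn10a, the Nav1.8 sodium channel, was called lower (781 ± 54.4 CPM in AD1 OE, 1387 ± 79.7 CPM in Control), and 7 were not called, including Trpv1, the capsaicin receptor (log2FC -0.12). The median log2FC of the 8 genes was -0.02 and their summed level 3375 to 3596 CPM (AD1 OE) and 3783 to 4227 CPM in Control. This sum includes Scn10a, which was at 736 to 858 CPM (AD1 OE) and 1283 to 1477 CPM in Control. The sum without Scn10a was not computed.

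The profiles most like those of the called peptide genes were searched among 10987 named genes averaging 10 CPM or more (10988 for Nmb), by the root mean square difference of log2 CPM over the 8 libraries after centring each gene on its mean. For Calca these were Fstl5 (difference 0.05), Syt4 (0.05) and Tmem255a (0.07), and for Tac1 they were Kcna4 (0.06), Myt1 (0.09) and Sez6 (0.10). Adcyap1 was closest to Nedd9 (0.04), Robo2 (0.06) and Tmem164 (0.06). Nmb was closest to Kcnj11 (0.09) and Cdh18 (0.10), and Gal to Ppp1r16b (0.08), Rab3b (0.08) and Znrf2 (0.08). Syt4, a synaptotagmin of dense-core vesicles, fell from 340 ± 10.1 CPM (Control) to 210 ± 12.6 CPM in AD1 OE (log2FC -0.69, edgeR adjusted p = 4.40e-06). Syt4 was picked for its likeness to Calca, so its fall is not a separate result.

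Relatives of these peptides from the same gene families were scarce and mostly below the filter. Of 13 family members (such as Adm, Vip, Nppc, Grp and Tac2), 5 were tested and 0 were called, with 1 at an unadjusted p under 0.05 in edgeR and 0 called by DESeq2 or limma-voom. That gene was Vip, the PACAP relative, at 1.40, 1.34, 1.22 and 1.41 CPM (Control) and 0.701, 0.668, 0.382 and 0.864 CPM in AD1 OE. The Vip groups did not overlap, and its log2FC of -1.02 had an edgeR adjusted p of 0.0147. Adm, Nppc and Grp had log2FCs of 0.09, -0.13 and 0.34 at mean Control levels of 2.50, 2.07 and 1.29 CPM. Iapp, Galp and Ppy were at 0 in every library. Among 7 peptides of other families, 3 were tested, and Nts, which encodes neurotensin, was called lower. Of all tested genes, 1.78% were called lower, 0.784% were called higher and 18.6% had an unadjusted p under 0.05 in edgeR. Nts was at 2.93, 2.46, 2.40 and 2.03 CPM (Control) and at 0.791, 0.802, 0.842 and 1.15 CPM in AD1 OE, a log2FC of -1.44 with an SE of 0.18 (edgeR adjusted p = 3.65e-04). Cck (log2FC -0.13) and Trh (0.68, adjusted p 0.156) were not called, and Crh was below the filter.

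The receptor list held 28 genes of the receptor families of the 10 peptides, including receptors mainly of other peptides, such as Tacr3 and Npr2. Of the 28, 21 were tested, 3 were called lower and 0 higher, against 1.78% and 0.784% of all tested genes. Npy2r, the presynaptic Y2 receptor of sensory endings, had the steepest decrease. It was at 6.66, 9.0, 8.25 and 9.94 CPM (Control) and at 3.19, 1.69, 2.26 and 2.41 CPM in AD1 OE (log2FC -1.80, SE 0.17, edgeR adjusted p = 5.29e-05). Ramp3, an accessory subunit of the calcitonin receptor-like receptor, was at 10.8 ± 0.498 CPM (Control) and 6.30 ± 0.591 CPM in AD1 OE (log2FC -0.76, adjusted p = 1.44e-04). Tacr3, the neurokinin B receptor, was at 2.80 ± 0.641 and 0.999 ± 0.328 CPM (log2FC -1.44, adjusted p = 0.00275), and this call was lost in 8 of 17 alternative fits, 6 of them without 1 library, with adjusted p-values up to 0.0139. The most abundant receptors were not called. Npr2, the C-type natriuretic peptide receptor, was at 129 ± 7.53 CPM (AD1 OE) and 132 ± 3.31 CPM in Control, and Npr3 was at 65.2 ± 8.10 and 58.8 ± 6.54 CPM. Ramp2 (log2FC -0.02) shares exons with Vps25, and Calcrl, the receptor that binds CGRP together with Ramp1, had a log2FC of -0.19 with an adjusted p of 0.0547. The AD1 OE libraries lay entirely below Control for 6 of the 21 tested receptors and entirely above for 0, against 7.26% and 5.69% of all tested genes. Calcrl was 1 of the 6, at 24.1 to 26.6 CPM in AD1 OE and 27.6 to 30.2 CPM in Control. The median log2FC of the tested receptors was -0.03.

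Of 7 genes that process the peptides and 9 of the vesicles that store them, all tested, 2 were called lower and 0 higher, against 1.78% and 0.784% of all tested genes. With the adjusted p limit relaxed to 0.05 and any fold allowed, 7 of the 16 were lower and 0 higher, against 4.14% and 2.42% of all tested genes. The AD1 OE libraries lay entirely below Control for 8 of the 16, against 7.26% of all tested genes, and for the other 8 the groups overlapped. Pcsk2, the prohormone convertase that cuts many of these precursors, was at 213 ± 3.99 CPM (Control) and 153 ± 2.22 CPM in AD1 OE, and shares exons with antisense transcripts. Its AD1 OE libraries were all below the Control libraries, with a log2FC of -0.47 and an SE of 0.03 (edgeR adjusted p = 2.86e-06). Scg2, a granin of dense-core vesicles, was at 212 ± 10.3 CPM (Control) and 161 ± 11.2 CPM in AD1 OE (log2FC -0.39, adjusted p = 5.42e-04). Scg3, a granin-binding protein, had an adjusted p of 0.00125 but a log2FC of -0.24, short of the threshold in size. Cpe, the carboxypeptidase that trims the cut peptides, was the most abundant of the list and was not called (683 ± 29.7 CPM in AD1 OE, 704 ± 12.8 CPM in Control, log2FC -0.04). Pcsk1n (-0.23), Pam, which amidates CGRP and substance P (-0.11), Cadps (-0.04) and Chga (-0.16) were not called either. The median log2FC was -0.04 for the processing genes and -0.21 for the vesicle genes, against 0.002 for all tested genes.

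**Figure D4:**
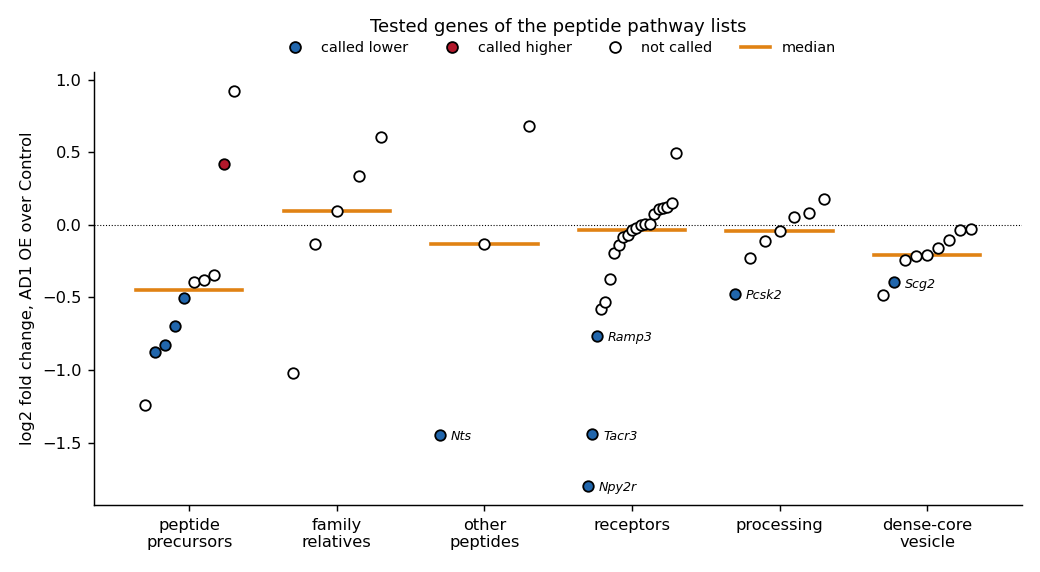
Log2 fold change of every tested gene of the peptide pathway lists in AD1 OE over Control (circles, blue called lower, red called higher, white not called) with the median of each list (orange). The medians are -0.45 for the peptide precursors, -0.03 for the receptors, -0.04 for the processing genes and -0.21 for the vesicle genes, and the called genes outside the precursors are all lower.

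Several peptide genes are textbook targets of cAMP signalling through the cAMP response element (CRE), so their promoter windows were read for the letters TGACGTCA and for its core TGACG on both strands. RefSeq windows (GRCm38.p6) of 250 bases before to 50 bases after the start were at hand for 9 of the 10 genes, Calcb being the exception. The core, which the full element contains on each strand, was in the windows of 6 genes, and the full element in those of Sst and Cartpt. Of all 32851 windows, 20.8% held the core and 1.79% the full element. Among the genes that fell, the core began 65 bases before the start in Calca, 43 and 197 bases before it on the opposite strand in Tac1, and 91 bases before the first of the annotated starts in Adcyap1, and it was not in the Nmb window. In Gal it began at base 20 after the start. The full element began 48 bases before the start in Sst and 112 bases before it in Cartpt. The 150 bases before the start are shown for 3 genes that fell and for both genes with the full element, 5′ to 3′ in the direction of the gene and with the motif in capitals (the farther Tac1 match lies outside the stretch shown), at chr7:114636358-114636507 (minus strand), chr6:7554911-7555060 (plus), chr17:93198867-93199016 (plus), chr16:23890845-23890994 (minus) and chr13:99900684-99900833 (minus).
Calca: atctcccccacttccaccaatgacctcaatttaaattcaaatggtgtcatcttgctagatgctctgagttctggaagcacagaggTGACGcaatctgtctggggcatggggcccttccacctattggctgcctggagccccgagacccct
Tac1: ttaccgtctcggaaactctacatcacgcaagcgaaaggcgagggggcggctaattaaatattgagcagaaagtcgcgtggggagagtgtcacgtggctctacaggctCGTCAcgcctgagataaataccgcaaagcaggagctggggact
Adcyap1: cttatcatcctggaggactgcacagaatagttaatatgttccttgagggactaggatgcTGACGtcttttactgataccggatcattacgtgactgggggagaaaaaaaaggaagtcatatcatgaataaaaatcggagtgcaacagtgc
Sst: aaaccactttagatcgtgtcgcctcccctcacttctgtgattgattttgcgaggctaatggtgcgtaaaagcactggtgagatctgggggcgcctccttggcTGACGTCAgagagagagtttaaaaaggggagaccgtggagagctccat
Cartpt: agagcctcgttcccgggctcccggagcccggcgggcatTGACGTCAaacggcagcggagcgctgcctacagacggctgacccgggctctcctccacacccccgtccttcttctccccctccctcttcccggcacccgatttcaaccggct
The core was thus present beside genes that fell (Calca, Tac1, Adcyap1), a gene that rose (Gal) and genes that were not called (Sst, Cartpt), and a match of letters describes the window without showing that a factor binds there.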

How the data were processed

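Per the labels and the study's methods, poly(A) RNA libraries of whole DRG were made with a stranded Illumina kit, demultiplexed with bcl2fastq 2.20.0.422, aligned by the authors to GRCm39 with STAR 2.7.8a and counted per Ensembl gene with featureCounts 2.0.1. The deposited values are raw counts, 1 file per library, unfiltered, and 0 lines named no gene. The strand setting of the counting is not given in the sources used here, so genes that share exons are uncertain. Groups and replicate numbers came from the sample titles. Symbols (52081 of 55414 IDs), exon lengths and exon overlaps came from GENCODE M21 (GRCm38), a build that precedes the one counted on, and all 134 listed genes had an ID, 1 through a RefSeq synonym.

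Genes were kept by filterByExpr (17721), scaled by TMM and tested with edgeR 4.0.16 (R 4.3.3) using quasi-likelihood F tests; genotype was the sole term, and p-values were adjusted by Benjamini-Hochberg across every tested gene. The study used DESeq2, run here as an alternative (version 1.42.0), besides limma-voom (limma 3.58.1), other scalings, filters and thresholds, a sex score (log2 ratio of 4 Y-linked genes to Xist), the replicate number as a block, and leaving out each library. Intervals of fold changes use the standard error and 6 residual degrees of freedom. Log2 CPM carried a prior count of 0.5. Replicates of a group differed by more than counting noise (chi-square per degree of freedom 4.34 to 12.2). The fits were tested on simulated counts with changes larger than those of Calcb, Adcyap1 and Gal, so changes of their size were not covered. Reads carry no molecular identifiers, so counting precision is not molecule precision.

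The 10 genes and all lists were chosen with earlier results of these data known. Named are the 10 genes, the called genes and up to 4 most abundant genes of each related list (family, other peptides, receptors, processing, vesicle), the 3 most alike genes of each called gene (1 of those of Nmb is not reported here), Dach1, Avil and the marker lists. Individual markers, Sox11, Atf3, Jun, Gap43, Chrna3, Dbh, Scn10a, Trpv1, Ret, Scn11a, P2rx3, Flrt3, Gadd45a, Ecel1, Pdgfra, Fabp7 and Tac2 among them, and Iapp, Galp and Ppy were picked out after their values were seen.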

Additional observations from a re-analysis of the deposited data

Results flagged for a closer look

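Samples far from the rest of their group were looked for in the 10 peptide genes and the related genes named above, in 66 groups of 4 libraries (Dixon's test at the 95% level, which flags about 1 in 20 groups by chance). The Nts level in AD1 OE replicate 4, 1.15 CPM, was set apart from the other 3 AD1 OE libraries at 0.791 to 0.842 CPM. It stayed below the lowest Control library at 2.03 CPM, and Nts was called in all 17 alternative fits.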

How the results depend on the processing

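Calca, Tac1, Adcyap1 and Nmb were called in all 17 alternative fits and Gal in 16, the exception being the fit without AD1 OE replicate 1. Limits of 0.05 on the adjusted p and 1 on the size of the log2FC left 0 of the 10 peptide genes, since the called ones are below that size; 0 of the processing and vesicle genes, 1 family peptide (Vip) and 129 of all genes passed. With the adjusted p below 0.05 and any fold allowed, 1161 genes, 7 processing and vesicle genes and 1 family peptide passed, against 455, 2 and 0. Without an expression filter 747 genes and 1 family peptide were called. Fits without 1 library called 289 to 420 genes (289 without AD1 OE replicate 1), 4 to 6 peptide genes, 2 to 3 receptors, and 2 to 3 processing and vesicle genes. The Calca share of Calca and Calcb counts differed by -1.61 to -1.18 percentage points between the groups without 1 library, the smallest without AD1 OE replicate 4. The fits for related genes were added after the calls were known.

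With the replicate block 348 genes, 5 peptide genes and 2 receptors were called, Tacr3 being lost. Same-numbered libraries did not deviate together throughout (correlations -0.12, -0.18, 0.31 and 0.54), and 3 of 8 libraries correlated best with their own number, so the numbers were not taken as pairs. Sst, Nppb and Npy had at most 44 counts per library, which limits what could be detected.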
